A study of Mus musculus with 17 samples.

Results

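Prostaglandins and leukotrienes are made from arachidonic acid, and 10 genes of their synthesis and reception were followed here across mouse macrophages. The genes were chosen by name, as the rows of the expression table whose symbol was Pla2g4a, Ptgs1, Ptgs2, Ptges, Tbxas1, Ptger2, Ptger4, Alox5, Alox5ap or Lta4h, and each matched 1 of the 24453 gene models in the table. Their names came from the pathway, with earlier results of these data known. All 10 were protein-coding.

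Cytosolic phospholipase A2, encoded by Pla2g4a, releases arachidonic acid from membranes, and the released acid can go down either of 2 routes. In the cyclooxygenase route, the enzymes encoded by Ptgs1 and Ptgs2 convert it to prostaglandin H2, which prostaglandin E synthase (Ptges) turns into PGE2 and thromboxane synthase (Tbxas1) turns into thromboxane. PGE2 is sensed on macrophages by receptors that raise cyclic AMP, among them EP2 (Ptger2) and EP4 (Ptger4). In the leukotriene route, 5-lipoxygenase (Alox5), with its partner protein FLAP (Alox5ap), makes leukotriene A4, and leukotriene A4 hydrolase (Lta4h) converts that to the neutrophil attractant leukotriene B4. Ptgs1 is generally regarded as the constitutive cyclooxygenase gene and Ptgs2 as the one induced by bacterial products.

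The RNA of 13 poly(A) libraries was sequenced, 8 from immortalised bone marrow-derived macrophages (iBMDMs) and 5 from thioglycollate-elicited peritoneal macrophages (TGEMs). The study asked what individual AP-1 transcription factors do in macrophages. All iBMDM libraries came from 1 kind of cell, C57Bl/6EiJ male bone marrow immortalised with BRAF V600E and Myc, carrying Cas9 with EGFP, vehicle treated, and given lentiviral guides for Atf3 (Atf3KO, 2 libraries), Jun (JunKO, 2 libraries), Jund (JunDKO, 2 libraries) or a scrambled control (Scramble, 2 libraries, titled zsGreen). Infected cells were sorted by a marker carried on the virus, and no cloning step is described, so a knockout group may be a mixture of edited cells of 1 line. The immortalising genes are shared by the controls. TGEMs came from male C57Bl/6EiJ mice, with 1 vehicle library and 1 library treated for 1 h with KLA (Kdo2 lipid A, a Toll-like receptor 4 agonist), and from male Balb/cJ mice, with 1 vehicle library and 2 KLA libraries. A further 4 samples of nascent RNA were not analysed here.

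Read depth, recovered from the steps in the values, ran from 1553296 to 18444431 reads, and all 8 macrophage markers that were examined had reads in each of the 13 libraries. Edited cells were labelled by the guide given. Exonic Atf3 RNA was 80.7 and 77.4 RPKM in Scramble and 154 and 169 RPKM in Atf3KO, Jun RNA was 17.6 and 18.5 RPKM in Scramble and 26.2 and 20.5 RPKM in JunKO, and Jund RNA was 9.19 and 8.33 RPKM in Scramble and 6.94 and 6.07 RPKM in JunDKO. Small edits need not change RNA amount, so these levels do not check the labels. The study reports that western blots of the edited cells bore out knockout efficiency, and that Jun ChIP-seq binding was largely lost in the Jun knockout cells. Neither was analysed here. The Atf3KO libraries carried different title dates, and the one labelled replicate 2 stood apart, with Jund at 83.0 RPKM against 22.6 RPKM in replicate 1. The called results on Atf3KO that are named are therefore also given without replicate 2. Both Atf3KO libraries had reads in fewer gene models, 10425 and 10631, than the Scramble libraries, 12207 and 12491, though they were deeper. Low levels in Atf3KO carry this limit, which leaving out replicate 2 does not remove, and its part was not tested. Nothing in the labels says that libraries of a group came from separate cultures or animals, so p-values measure the spread between these libraries, which may be technical.

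Because the edited genes encode AP-1 proteins, the DNA before the start sites of 5 of the genes is shown first. The 250 bases before each start came from RefSeq promoters of GRCm38.p6, the build of the expression table (mm10), and 9 of the 10 genes had an entry. The exception was Alox5ap. Letters are given 5′ to 3′ on the coding strand and end at the base before the start. Capitals mark matches, on either strand, to the motifs named after the sequences. Ptgs2 and Ptgs1 are shown as the cyclooxygenase pair that moved in opposite directions in JunDKO, Ptger2 and Alox5 because they fell in JunDKO, and Tbxas1 because its window was alone among the 9 genes in holding an AP-1-like match.
Ptgs2: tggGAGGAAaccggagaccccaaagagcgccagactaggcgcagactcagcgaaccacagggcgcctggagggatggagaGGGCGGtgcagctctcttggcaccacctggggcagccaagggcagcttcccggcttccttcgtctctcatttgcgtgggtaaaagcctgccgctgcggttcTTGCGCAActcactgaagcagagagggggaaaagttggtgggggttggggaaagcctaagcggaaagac
Ptgs1: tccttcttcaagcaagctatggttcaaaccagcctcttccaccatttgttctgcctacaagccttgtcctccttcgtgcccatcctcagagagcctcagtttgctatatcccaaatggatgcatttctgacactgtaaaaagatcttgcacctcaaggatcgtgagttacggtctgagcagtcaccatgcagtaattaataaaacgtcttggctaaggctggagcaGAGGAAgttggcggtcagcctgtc
Ptger2: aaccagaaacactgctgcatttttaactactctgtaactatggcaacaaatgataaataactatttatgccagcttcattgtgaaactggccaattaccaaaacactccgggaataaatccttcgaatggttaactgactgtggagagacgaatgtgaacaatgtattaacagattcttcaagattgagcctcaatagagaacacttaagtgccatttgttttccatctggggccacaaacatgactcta
Alox5: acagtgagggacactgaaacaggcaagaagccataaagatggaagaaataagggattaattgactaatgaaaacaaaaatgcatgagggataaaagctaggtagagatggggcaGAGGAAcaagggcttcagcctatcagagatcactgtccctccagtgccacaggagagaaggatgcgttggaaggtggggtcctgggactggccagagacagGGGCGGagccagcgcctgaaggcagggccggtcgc
Tbxas1: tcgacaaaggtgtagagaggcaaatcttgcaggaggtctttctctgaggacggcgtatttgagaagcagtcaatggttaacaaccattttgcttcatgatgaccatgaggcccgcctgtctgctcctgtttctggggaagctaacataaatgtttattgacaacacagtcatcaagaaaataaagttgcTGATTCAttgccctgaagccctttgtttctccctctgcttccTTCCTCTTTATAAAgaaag

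The windows lay at chr1:150099781-150100030 (plus strand, Ptgs2), chr2:36230176-36230425 (plus strand, Ptgs1), chr14:44987861-44988110 (plus strand, Ptger2), chr6:116461179-116461428 (minus strand, Alox5) and chr6:38918736-38918985 (plus strand, Tbxas1). The share of all 32851 promoter windows of this length that held each motif is given with it. An AP-1 site with a free middle base, TGANTCA, was held by 6.75%. The core of a cyclic AMP response element, TGACGT, was present in 6.47%, and the E-box, spelled CACGTG, in 6.02%. A C/EBP match, written as either TTGCNNAA or, in its other spelling, TTNCGNAA, occurred in 10.8%. The PU.1 core, with the letters GAGGAA, occurred in 23.3%, the Sp1 letters, searched for as GGGCGG, in 32.7%, and the TATA box, searched for as TATAAA, in 12.4%. The NF-kB consensus was found in 7.25%.

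In Tbxas1 the AP-1-like TGATTCA lay from -61 to -55, counted from the start site, and was followed by a PU.1 core from -19 to -14 and by overlapping TATA matches between -13 and -6. Ptgs2 held a C/EBP palindrome, TTGCGCAA, from -69 to -62, which matches both C/EBP spellings at once, with Sp1 letters from -170 to -165 and a PU.1 core from -247 to -242. Ptgs1 held 1 PU.1 core, from -24 to -19. Alox5 held a PU.1 core from -136 to -131 and Sp1 letters from -35 to -30, and the Ptger2 window held no match. Ptges, which also fell in JunDKO but is not shown, held a PU.1 core from -149 to -144. It also held Sp1 letters from -53 to -48 and from -42 to -37. These are matches of letters and were not tested for binding.

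Transcript levels are given as RPKM, reads scaled to exon length and to library depth, so that they can be compared between genes. Alox5ap had the highest level of the 10 genes in each of the 8 iBMDM libraries, at 184 to 470 RPKM. Its level in TGEMs was 37.4 to 98.8 RPKM. Its partner Alox5 lay between 0 and 5.84 RPKM over all 13 libraries, so where Alox5 had reads the FLAP gene exceeded it by a ratio of between 68.9 and 682. Pla2g4a reached 64.6 RPKM, Lta4h 80.9 RPKM and Tbxas1 48.9 RPKM at their highest. Ptgs1, Ptges, Ptger2 and Ptger4 stayed at or under 31.9 RPKM in each library, and Ptgs2 ran from 0 to 68.5 RPKM.

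**Figure D1:**
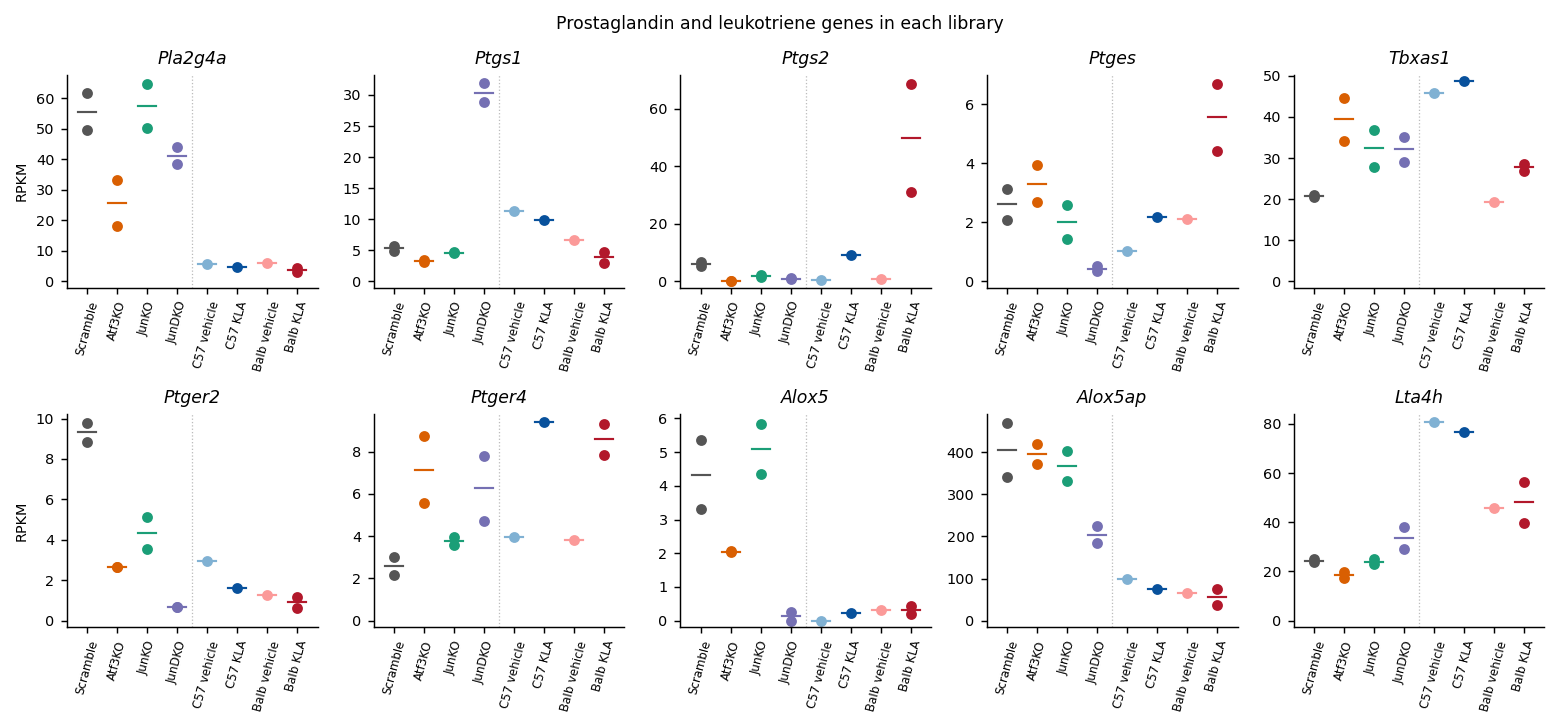
Levels of the 10 genes, 1 panel each. The y axis is RPKM from 0, points are libraries, bars are group means, and a dotted line separates the 4 iBMDM groups from the 4 TGEM groups. Ptgs1 was at 28.9 and 31.9 RPKM in JunDKO and at or under 11.4 RPKM elsewhere, and Ptgs2 was highest in the Balb/cJ KLA libraries, at 68.5 and 31.2 RPKM.

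Each comparison below used limma-trend on log2(RPKM + 1), fitted over all genes with a mean of at least 1 RPKM, with p-values adjusted over all of them by the Benjamini-Hochberg method. A gene is called, and said to rise or fall, at an adjusted p under 0.05 and a change of at least 2-fold. Differences are on this log2 scale, which understates the change of genes near 0. The 3 knockout groups were compared with the same 2 Scramble libraries, so their results are not independent of each other. In RNA of whole cultures, fewer cells that express a gene and less RNA per cell cannot be told apart.

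The cyclooxygenase genes moved in opposite directions in the libraries labelled JunDKO. Ptgs1 rose, while Ptgs2, Ptges, Ptger2 and Alox5 fell, so 5 of the 10 genes were called in JunDKO against Scramble. Over all 10691 genes tested 8.77% were called, 4.81% higher and 3.97% lower. The median difference was -0.70 over the 10 genes and 0.23 over all genes.

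Ptgs1 (NM_008969, chr2:36230426-36252271, plus strand) was at 4.90 and 5.73 RPKM in Scramble and at 28.9 and 31.9 RPKM in JunDKO. The groups did not overlap, and the JunDKO libraries were the highest of all 13. The difference was 2.31 (SE 0.20, n = 2 and 2, limma-trend adjusted p = 0.000344). The call was made again under each of the 18 alternative treatments of the data that were tried for this comparison.

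Ptgs2 (NM_011198, chr1:150100031-150108234, plus strand) was at 5.48 and 6.57 RPKM in Scramble and at 1.16 and 0.744 RPKM in JunDKO. Both edited libraries lay under both controls. The difference was -1.85 (SE 0.30, limma-trend adjusted p = 0.0062). With 5 in place of 1 added to the RPKM it was -0.89, under 2-fold, and the call was lost. In reads, 97 over the Scramble libraries stood against 69 over the JunDKO libraries, which together held more reads, a ratio of read rates of 7.72 with a 95% exact interval of 5.61 to 10.7 that covers counting error only.

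Ptges (NM_022415, chr2:30889471-30903297, minus strand) was at 3.13 and 2.09 RPKM in Scramble and at 0.354 and 0.506 RPKM in JunDKO. The groups were apart, but the JunDKO values rest on 2 and 34 reads. The difference was -1.32 (SE 0.33, limma-trend adjusted p = 0.0375). The call was lost under 9 of 18 alternatives. Leaving out any of the 4 libraries ended it, with differences of -1.53 to -1.11. It was also lost in fits over the 2 groups compared (limma-trend adjusted p = 0.072) and without the Atf3KO libraries (limma-trend adjusted p = 0.055).

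The EP2 receptor gene Ptger2 (NM_008964, chr14:44988111-45003820, plus strand) was at 9.77 and 8.85 RPKM in Scramble and at 0.684 and 0.691 RPKM in JunDKO. No overlap was seen. The difference of -2.61 (SE 0.25, limma-trend adjusted p = 0.000564) corresponded to 128 reads against 52, a ratio of read rates of 13.5 with a 95% exact interval of 9.72 to 19.0.

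For Alox5 (NM_009662, chr6:116410071-116461178, minus strand), the Scramble libraries had 5.35 and 3.33 RPKM and the JunDKO libraries 0 and 0.27 RPKM. In JunDKO the gene was thus listed at 0 in the shallower library, where 3 reads would have been 0.687 RPKM, and had 14 reads in the deeper one. The difference was -2.22 (SE 0.31, limma-trend adjusted p = 0.003), and the read rates differed by a ratio of 17.7 (95% exact interval 9.51 to 34.8). With 5 in place of 1 added to the RPKM the difference was -0.85, and Alox5 was not called. Its partner Alox5ap (NM_009663, chr5:149265004-149288153, plus strand) was at 470 and 341 RPKM in Scramble and at 225 and 184 RPKM in JunDKO. That difference, -0.97 (SE 0.21, limma-trend adjusted p = 0.0237), passed the p threshold and stayed just under the 2-fold limit, and it was called with equal library medians (-1.25), by limma-voom on recovered reads, and without Scramble replicate 2 (-1.20, limma-trend adjusted p = 0.0432).

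The remaining 4 genes were not called in JunDKO. Ptger4 (NM_008965, chr15:5233399-5244187, minus strand) was at 3.02 and 2.15 RPKM in Scramble and at 4.74 and 7.80 RPKM in JunDKO, with no overlap and a difference of 1.00 (95% interval 0.30 to 1.70, limma-trend adjusted p = 0.0746), and it was called after GC correction (limma-trend adjusted p = 0.0426). Tbxas1, Lta4h and Pla2g4a differed by 0.59, 0.44 and -0.42, with limma-trend adjusted p-values of 0.119, 0.187 and 0.375. Some markers of cell type moved with JunDKO, and some of them with the other knockouts too. The neutrophil marker S100a8 was at 34.8 and 33.2 RPKM in Scramble and listed at 0 in both JunDKO libraries, while the other 6 neutrophil markers were listed at 0 in all iBMDM libraries, and the platelet marker Ppbp was at 2.99 and 4.14 RPKM in JunDKO and listed at 0 in the other 6 iBMDM libraries. All 5 platelet markers together came to 1.23 and 4.52 RPKM in Scramble and 5.23 and 7.41 RPKM in JunDKO, with Gp9 listed at 0 in all iBMDM libraries. Among the 8 macrophage markers, all with reads, Itgam was at 441 and 420 RPKM in Scramble and 213 and 220 RPKM in JunDKO, and Mertk at 7.04 and 8.27 RPKM and 36.1 and 36.8 RPKM. Adgre1 and Lyz2 were also lower in JunDKO than in Scramble, Csf1r, Cd68 and Fcgr1 were higher, and Cd14 overlapped. Mertk was also higher in Atf3KO, at 28.8 and 24.6 RPKM, and in JunKO, at 14.1 and 11.2 RPKM. The platelet markers together came to 7.79 and 6.13 RPKM in Atf3KO. The part of these in the JunDKO results was not tested.

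In the libraries labelled Atf3KO, Ptgs2, Ptger2 and Pla2g4a fell and Ptger4 rose, so 4 of 10 genes were called where 28.7% of 10691 genes were, 14% higher and 14.7% lower. The median difference was -0.48 over the 10 genes against 0.05 over all genes. Markers of cell type moved here too. Mertk and the summed platelet markers were higher than in Scramble, as given above. The eosinophil marker Ccr3 was at 1.59 and 2.32 RPKM in Scramble and listed at 0 in both Atf3KO libraries, while S100a8 overlapped. The part of these in the Atf3KO results was not tested. Without Atf3KO replicate 2, which leaves a lone Atf3KO library whose spread is taken from the other groups, 3 of the 10 genes and 2193 genes in all were called, in place of 4 and 3068.

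Ptgs2 had 0 and 0.093 RPKM in Atf3KO, against 5.48 and 6.57 RPKM in Scramble. These were 0 reads in the first library, in which 3 reads would have been 0.153 RPKM, and 3 reads in the second, the lowest levels of the gene in the study. The difference was -2.74 (SE 0.30, limma-trend adjusted p = 0.000693), and without Atf3KO replicate 2 it was -2.81 (limma-trend adjusted p = 0.006). The 97 reads of Scramble and 3 of Atf3KO gave a ratio of read rates of 103 with a 95% exact interval of 34.3 to 510.

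Ptger2 was at 2.66 and 2.64 RPKM in Atf3KO against 9.77 and 8.85 RPKM in Scramble, so the edited libraries were nearly equal and well under both controls. The difference was -1.50 (SE 0.25, limma-trend adjusted p = 0.0033), and it was -1.49 without Atf3KO replicate 2 (limma-trend adjusted p = 0.018). Ptger4 moved the other way, from 3.02 and 2.15 RPKM to 5.58 and 8.73 RPKM. All Atf3KO values lay over all Scramble values, with a difference of 1.17 (SE 0.31, limma-trend adjusted p = 0.0176). Without Atf3KO replicate 2 the difference was 0.89, past no threshold (limma-trend adjusted p = 0.100), and without Scramble replicate 2 it was 0.99 (limma-trend adjusted p = 0.111).

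Pla2g4a (NM_008869, chr1:149829619-149961290, minus strand), which supplies both routes with arachidonic acid, was at 49.5 and 61.6 RPKM in Scramble and at 33.1 and 18.3 RPKM in Atf3KO. The groups did not overlap, but the Atf3KO libraries were themselves far apart. The difference of -1.13 (SE 0.29, limma-trend adjusted p = 0.0156) was -0.72 without Atf3KO replicate 2 (limma-trend adjusted p = 0.065), -0.98 without Scramble replicate 2 (limma-trend adjusted p = 0.107) and -0.51 after correction for GC content, and under none of these was the gene called.

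Tbxas1 (NM_011539, chr6:38918986-39084579, plus strand), which encodes thromboxane synthase, was at 20.6 and 21.1 RPKM in Scramble and at 44.6 and 34.2 RPKM in Atf3KO. Its difference of 0.87 (SE 0.22, limma-trend adjusted p = 0.0145) was under 2-fold, and without Atf3KO replicate 2 it was past 2-fold and was called (limma-trend adjusted p = 0.022). The non-coding model 1700025N23Rik overlaps Tbxas1 on the other strand and had at most 0.423 RPKM in a library. Ptgs1, at 3.43 and 3.05 RPKM in Atf3KO, differed by -0.57 (limma-trend adjusted p = 0.048), and Alox5, at 2.02 and 2.07 RPKM, by -0.78 (limma-trend adjusted p = 0.0713), which became -1.05 and a call after GC correction (limma-trend adjusted p = 0.020). For Ptges, Alox5ap and Lta4h the differences were 0.26, -0.02 and -0.38. Without Atf3KO replicate 2, the differences of Ptgs1, Alox5, Ptges, Alox5ap and Lta4h were -0.51, -0.79, 0.47, 0.06 and -0.47, and the lowest of their limma-trend adjusted p-values was 0.115.

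In JunKO, 0 of the 10 genes were called by limma-trend and 0 by limma-voom, and 3 had an unadjusted p under 0.05, as had 842 of all 10691 genes. Few genes were called at all in this comparison, 0.281% of 10691, of which 0.159% were higher and 0.122% lower. Ptgs2 was nonetheless at 1.45 and 2.10 RPKM against 5.48 and 6.57 RPKM in Scramble, with no overlap and a difference of -1.34 (95% interval -2.03 to -0.66, limma-trend adjusted p = 0.188). Ptger2 was at 5.14 and 3.57 RPKM against 9.77 and 8.85 RPKM, also apart, with a difference of -0.96 (95% interval -1.53 to -0.39, limma-trend adjusted p = 0.29). Tbxas1 differed by 0.60 (limma-trend adjusted p = 0.515) and the other 7 genes by -0.27 to 0.42. Over the 10 genes the median difference was -0.08, and over all genes it was 0.01.

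**Figure D2:**
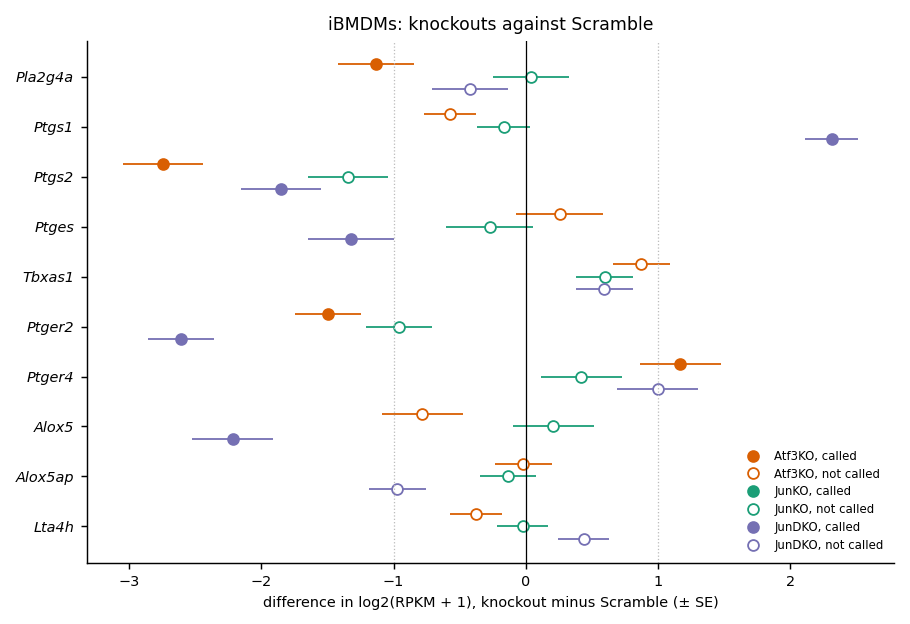
Differences of the 10 genes in each knockout from Scramble. The x axis is the difference in log2(RPKM + 1) with its standard error, colours are the knockouts, filled points were called and open points were not, and dotted lines mark 2-fold changes. For JunDKO, Ptgs1 at 2.31 is the one gene called on the right of 0, and Ptgs2 and Ptger2 lie left of 0 in all 3 knockouts.

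The knockouts were also compared with each other, since a call in one and not in another does not show a difference. JunDKO and JunKO differed for 3 of the 10 genes where 6.31% of all genes were called. Ptgs1 was higher in JunDKO by 2.48 (SE 0.20, limma-trend adjusted p = 0.000319), Ptger2 lower by 1.65 on the log2 scale (a difference of -1.65, SE 0.25, limma-trend adjusted p = 0.00607) and Alox5 lower with a difference of -2.43 (SE 0.31, limma-trend adjusted p = 0.00276). For Ptgs2 the difference between JunDKO and JunKO was -0.51 (95% interval -1.20 to 0.18, limma-trend adjusted p = 0.328), short of a call. The remaining 6 genes differed by -1.05 (Ptges, limma-trend adjusted p = 0.0933) to 0.58 (Ptger4).

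Between JunDKO and Atf3KO, 4 of the 10 genes were called where 28.6% of all genes were. Ptgs1 was higher in JunDKO by 2.89 (SE 0.20, limma-trend adjusted p = 7.66e-05). Ptges, Ptger2 and Alox5 were lower in JunDKO, with differences of -1.58, -1.11 and -1.43 (limma-trend adjusted p = 0.00697, 0.00937 and 0.00783). Ptgs2 was not called here, at 0.89 (95% interval 0.20 to 1.58, limma-trend adjusted p = 0.0445), and the remaining 5 genes differed by -0.95 (Alox5ap) to 0.82 (Lta4h). In this comparison Pla2g4a went from 0.71 to 0.30 and Ptger4 from -0.17 to 0.11 when Atf3KO replicate 2 was left out, and neither was called. Without Atf3KO replicate 1, Pla2g4a was at 1.12 and was called (limma-trend adjusted p = 0.0133), and without JunDKO replicate 1, Lta4h and Alox5ap were called (limma-trend adjusted p = 0.0256 and 0.0356). Without Atf3KO replicate 2 the 4 calls were made again, with differences of 2.82, -1.79, -1.12 and -1.42 for Ptgs1, Ptges, Ptger2 and Alox5, and Alox5ap was called as well (-1.04, limma-trend adjusted p = 0.029). Between Atf3KO and JunKO, 2 of 10 were called where 24.1% of all genes were, Ptgs2 with a difference of -1.40 (SE 0.30, limma-trend adjusted p = 0.0102) and Pla2g4a with one of -1.17 (SE 0.29, limma-trend adjusted p = 0.0162). The call for Pla2g4a did not hold without Atf3KO replicate 2 (-0.76, limma-trend adjusted p = 0.066) or without JunKO replicate 2 (-0.99, limma-trend adjusted p = 0.114), and that for Ptgs2 held without Atf3KO replicate 2 (-1.46, limma-trend adjusted p = 0.036) but not without JunKO replicate 2 (-1.23, limma-trend adjusted p = 0.050). The other 8 genes differed by -0.99 (Alox5) to 0.75 (Ptger4). The call for Ptger2 between JunDKO and JunKO was lost without either JunDKO library (limma-trend adjusted p = 0.056 each time), and between JunDKO and Atf3KO it was lost without JunDKO replicate 2 (limma-trend adjusted p = 0.050).

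The balance of the cyclooxygenase genes followed from these levels. Ptgs2 exceeded Ptgs1 by a ratio of 1.12 and 1.15 in the Scramble libraries. The ratio was 0.321 and 0.446 in JunKO, 0.0401 and 0.0234 in JunDKO, and 0 and 0.0305 in Atf3KO. In JunDKO both genes were called, and in Atf3KO only Ptgs2 was.

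**Figure D3:**
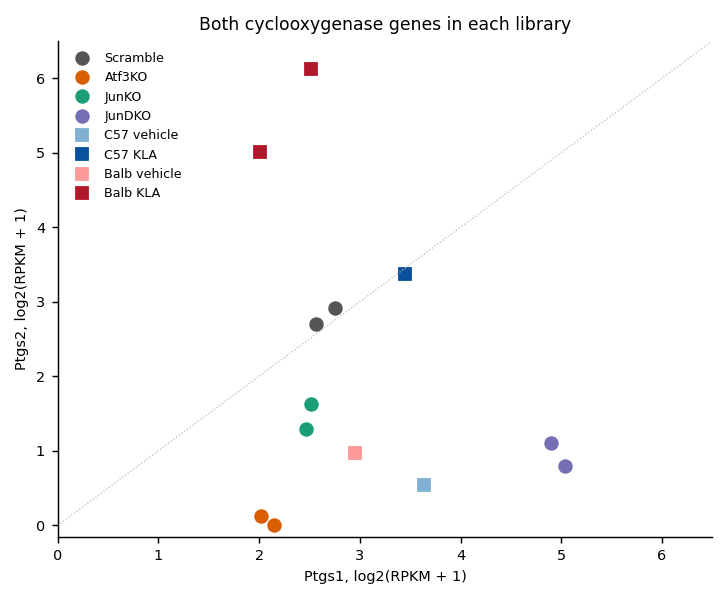
Ptgs2 against Ptgs1 in each of the 13 libraries, both as log2(RPKM + 1). Circles are iBMDMs, squares are TGEMs, and the dotted line marks equal levels. The Balb/cJ KLA libraries lie far above the line, at ratios of 14.5 and 10.3, and the JunDKO libraries far below it, at 0.0401 and 0.0234.

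In TGEMs treated with KLA for 1 h, Ptgs2 rose and the other 8 of the 9 genes that could be tested were not called. Of 10357 genes, 1.53% were called, 1.29% higher and 0.232% lower. These were 134 higher and 24 lower calls, a balance that became 169 and 141 by limma-voom on recovered reads and 190 and 178 in a fit over all 13 libraries. Alox5 was left out because its mean was under 1 RPKM in TGEMs. Across the 9 genes the median difference was -0.00, and across all genes it was -0.15.

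Ptgs2 went from 0.453 to 9.33 RPKM in C57Bl/6EiJ and from 0.96 to 68.5 and 31.2 RPKM in Balb/cJ. Each KLA library lay over both vehicle libraries. The difference was 3.84 (SE 0.48, n = 3 and 2, limma-trend adjusted p = 0.00932). Library pairs that shared a strain and a title date gave ratios of 20.6 in C57Bl/6EiJ and 71.3 in Balb/cJ, while the Balb/cJ KLA library of another date gave 32.5 against the same vehicle library. The call was lost with title date in place of strain, where the difference was 3.99 (limma-trend adjusted p = 0.072), and without the Balb/cJ vehicle library, where it was 2.83 (limma-trend adjusted p = 0.330).

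PGE2 synthase and the EP4 receptor gene had higher values in each KLA library than in the vehicle library of its strain, without passing the test. Ptges was at 1.03 RPKM in C57Bl/6EiJ vehicle and 2.19 RPKM with KLA, and at 2.11 RPKM in Balb/cJ vehicle and 6.69 and 4.42 RPKM with KLA, a difference of 0.88 (95% interval 0.20 to 1.56, limma-trend adjusted p = 0.243). Ptger4 was at 3.98 and 3.80 RPKM in the vehicle libraries and at 9.43, 7.85 and 9.33 RPKM with KLA, with no overlap and a difference of 1.02 (95% interval 0.48 to 1.57, limma-trend adjusted p = 0.111). Tbxas1 also had higher values in each KLA library than in the vehicle library of its strain, with a difference of 0.32 (limma-trend adjusted p = 0.572). Without the Balb/cJ vehicle library it was 0.09. Lower values in each such pair were found for Ptgs1, Pla2g4a and Ptger2, with differences of -0.47, -0.42 and -0.39 (limma-trend adjusted p = 0.448, 0.463 and 0.59). Alox5ap and Lta4h, whose pairs went both ways, differed by -0.35 and -0.00, the last with a 95% interval of -0.65 to 0.65. Alox5, outside the test, was at 0 and 0.304 RPKM in the vehicle libraries and at 0.219, 0.186 and 0.433 RPKM with KLA, and these ranges overlapped. Its 19 reads over the KLA libraries and 2 over the vehicle libraries corresponded, per read sequenced, to a 4.82 times higher rate with KLA (1.16 to 42.7, exact 95% limits), which was 1.20 times within Balb/cJ (0.134 to 5.04).

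**Figure D4:**
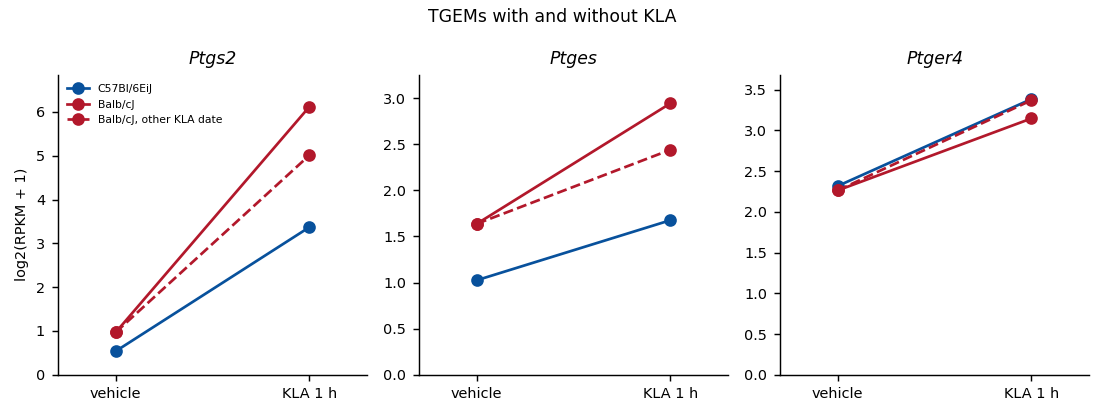
Ptgs2, Ptges and Ptger4 in TGEMs with vehicle and after 1 h of KLA, as log2(RPKM + 1). Lines join each KLA library to the vehicle library of its strain, dashed where the title dates differ. Ptgs2 rises from 0.453 to 9.33 RPKM in C57Bl/6EiJ and from 0.96 to as much as 68.5 RPKM in Balb/cJ.

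Whether KLA acted differently in the 2 strains was tested as an interaction, which had 1 residual degree of freedom. By limma-trend 0 of the 9 genes were called, as were 0% of all genes, and 0 of the 9 had an unadjusted p under 0.05. For Ptgs2 the response in Balb/cJ exceeded that in C57Bl/6EiJ by 1.76 (95% interval -0.36 to 3.89, limma-trend adjusted p = 0.663), a difference not detectable with these libraries. The other 8 genes gave -0.50 (Ptgs1) to 0.40 (Ptges).

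Between Balb/cJ and C57Bl/6EiJ TGEMs, with treatment held constant, 0 of the 9 genes were called by limma-trend and 0 by limma-voom, where 2.31% of all genes were, 0.859% higher and 1.45% lower in Balb/cJ. Strain and title date cannot be told apart here. An unadjusted p under 0.05 was reached by 5 of the 9, and by 2213 of all 10357 genes. Tbxas1 was at 45.7 and 48.9 RPKM in C57Bl/6EiJ and at 19.4, 26.9 and 28.5 RPKM in Balb/cJ, without overlap, a difference of -0.97 (95% interval -1.57 to -0.37, limma-trend adjusted p = 0.0998). Ptgs1 was at 11.4 and 9.91 RPKM in C57Bl/6EiJ and at 6.73, 4.72 and 3.04 RPKM in Balb/cJ, also apart (-0.97, limma-trend adjusted p = 0.115). Lta4h was at 80.9 and 76.7 RPKM against 45.7, 39.8 and 56.5 RPKM (-0.74, limma-trend adjusted p = 0.187). The other 2 of the 5 had higher values in Balb/cJ once treatment was held constant, Ptgs2 with a difference of 1.44 (95% interval 0.32 to 2.56, limma-trend adjusted p = 0.153; 0.43 without the C57Bl/6EiJ KLA library and 2.20 without either vehicle library) and Ptges with one of 0.84 (95% interval 0.16 to 1.52, limma-trend adjusted p = 0.164). Ptger2, Alox5ap, Pla2g4a and Ptger4 differed by -0.62, -0.51, -0.14 and -0.10. The median difference of the 9 genes was -0.51, and that of all genes was -0.08.

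The next comparison was of the 2 kinds of macrophage without KLA. Cell kind cannot be told apart here from title date or from the initials in the titles, which also differed. Of the vehicle TGEM libraries 1 was Balb/cJ, while Scramble was C57Bl/6EiJ. In vehicle-treated TGEMs against Scramble iBMDMs, Pla2g4a, Alox5ap, Alox5, Ptgs2 and Ptger2 were lower and Lta4h was higher, so 6 of the 10 genes were called. Of 10929 genes, 36.4% were called, 12.5% higher and 23.9% lower. The median difference over the 10 genes was -1.15, and over all genes -0.32.

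Pla2g4a was at 5.78 RPKM in C57Bl/6EiJ and 6.02 RPKM in Balb/cJ vehicle TGEMs, against 49.5 and 61.6 RPKM in Scramble. All 5 TGEM libraries lay under all 8 iBMDM libraries for this gene. The difference was -3.03 (SE 0.29, n = 2 and 2, limma-trend adjusted p = 7.55e-05). Alox5ap, at 98.8 and 66.6 RPKM against 470 and 341 RPKM, showed the same order of the 2 cell kinds, and its difference was -2.29 (SE 0.32, limma-trend adjusted p = 0.000575).

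Alox5 was at 0 and 0.304 RPKM in the vehicle TGEMs, against 5.35 and 3.33 RPKM in Scramble, a difference of -2.20 (SE 0.27, limma-trend adjusted p = 0.000297). With 2 reads in TGEMs and 45 in Scramble, the ratio of read rates was 84.9 (95% exact interval 22.2 to 723). Lta4h (NM_001313897, chr10:93453396-93484896, plus strand), the last enzyme of leukotriene B4 synthesis, went the other way. It was at 80.9 and 45.7 RPKM in the vehicle TGEMs and at 23.8 and 25.0 RPKM in Scramble, and all TGEM libraries lay over all iBMDM libraries. The difference was 1.29 (SE 0.22, limma-trend adjusted p = 0.00152), and with Balb/cJ as the remaining vehicle library it was 0.88, under 2-fold.

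Ptgs2 was at 0.453 and 0.96 RPKM against 5.48 and 6.57 RPKM (difference -2.05, SE 0.35, limma-trend adjusted p = 0.00151), and both vehicle libraries lay under both Scramble libraries and all 3 KLA libraries. Ptger2 was at 2.94 and 1.25 RPKM against 9.77 and 8.85 RPKM (difference -1.79, SE 0.24, limma-trend adjusted p = 0.000405). Ptgs1 differed by 0.64 (limma-trend adjusted p = 0.0378), under 2-fold, and Tbxas1, Ptger4 and Ptges by 0.50, 0.46 and -0.50 (limma-trend adjusted p = 0.0767, 0.213 and 0.191). For Tbxas1 the strains went different ways. With the C57Bl/6EiJ vehicle library alone the difference was past 2-fold and called (limma-trend adjusted p = 0.009), and with the Balb/cJ vehicle library alone it was -0.10 (limma-trend adjusted p = 0.778), each time with 1 TGEM library whose spread is taken from the other groups.

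Markers of cell type moved with this comparison. The 6 mesothelial and fibroblast markers all had reads in each TGEM library, with a sum of 34.4 to 71.7 RPKM, and summed to at most 0.417 RPKM in iBMDMs. The 5 B cell markers summed to 11.2 to 25.2 RPKM in TGEMs and to at most 0.488 RPKM in iBMDMs, and the 7 mast cell markers to 1.78 to 19.3 RPKM and at most 0.549 RPKM. The 8 macrophage markers summed to 7803 to 10847 RPKM in TGEMs and to 16880 to 33015 RPKM in iBMDMs. Lyz2 made up most of each sum, at 5321 to 7145 RPKM in TGEMs and 14815 to 30398 RPKM in iBMDMs. Adgre1, Csf1r, Itgam and Fcgr1 were also lower in all TGEM libraries, while Cd14 and Mertk overlapped. Cd68 went the other way, at 1404 to 4050 RPKM in TGEMs and 353 to 705 RPKM in iBMDMs. Of the 7 neutrophil markers, Ly6g, Camp, S100a9 and Retnlg were listed at 0 in all 13 libraries, which does not show that they were absent, since Gapdh, a gene used by every cell, was listed at 0 to 26.8 RPKM beside Actb at 1842 to 4764 RPKM, and S100a9 was at 0 where S100a8 reached 41.1 RPKM. The 5 platelet markers summed to at most 7.79 RPKM in iBMDMs and 3.11 RPKM in TGEMs, the 5 eosinophil markers to at most 6.15 and 4.15 RPKM, and the 6 T and NK cell markers to at most 1.42 and 3.00 RPKM. The part of cell makeup in the differences was not tested.

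**Figure D5:**
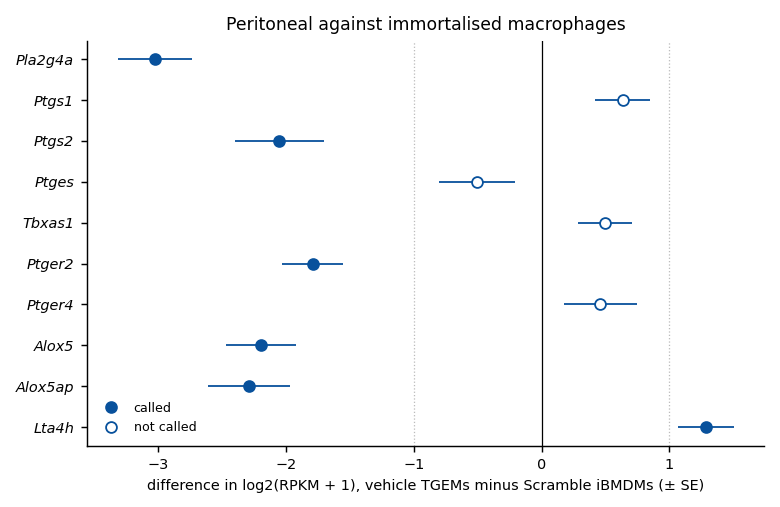
Differences of the 10 genes between vehicle TGEMs and Scramble iBMDMs. The x axis is the difference in log2(RPKM + 1) with its standard error, filled points were called, and dotted lines mark 2-fold changes. Pla2g4a lies lowest at -3.03 and Lta4h highest at 1.29.

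Placed in order of their mean levels over the 8 groups, the genes gave different sequences. For Ptgs2 the order was Balb/cJ KLA, C57Bl/6EiJ KLA, Scramble, JunKO, Balb/cJ vehicle, JunDKO, C57Bl/6EiJ vehicle and Atf3KO. Of these neighbours, the Balb/cJ vehicle library lay within the range of JunDKO. For Ptgs1 JunDKO came first and the C57Bl/6EiJ libraries next, followed by Balb/cJ vehicle, Scramble, JunKO, Balb/cJ KLA and Atf3KO, and the ranges of JunKO and Balb/cJ KLA overlapped, as did those of Balb/cJ KLA and Atf3KO. For Alox5 the order began with JunKO and Scramble, whose ranges overlapped, then Atf3KO at 2.02 and 2.07 RPKM, and the TGEM groups and JunDKO all lay at or under 0.433 RPKM.

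By the correlation of log2(RPKM + 1) over the 13 libraries, among 10929 genes, the profiles most like that of Ptgs1 were those of Gpr176 (Pearson's r 0.98), Rcbtb2 (0.94) and Eci1 (0.94). Those most like Ptgs2 were Cflar (0.96), B3gnt2 (0.95) and Nfkbie (0.95), and those most like Alox5 were Ccnd2 (0.97), Stfa3 (0.97) and Fpr2 (0.96). These are descriptions, since the libraries share cell kind, treatment and guide, and each profile is dominated by a few groups. Rcbtb2, for example, was at 88.5 and 109 RPKM in JunDKO and at 8.80 to 30.3 RPKM elsewhere.

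The wider pathway was followed in 48 other genes of eicosanoid release, synthesis, transport, breakdown and reception, of which 26 could be tested in iBMDMs. In Atf3KO, 6 rose and 6 fell, with a median difference of 0.18. These 12 of 26 stand beside 28.7% of all genes called, with an all-gene median of 0.05. Without Atf3KO replicate 2 the counts were 3 and 2, beside 20.5% of all genes. Ptgr1, which inactivates leukotriene B4 and prostaglandins, was at 86.2 and 71.2 RPKM in Scramble and at 15.2 and 15.5 RPKM in Atf3KO (-2.28, SE 0.21, limma-trend adjusted p = 0.000356), and at -2.29 without replicate 2 it was called again. Anxa1, an inhibitor of phospholipase A2 and the most abundant of these genes, went from 613 and 685 RPKM to 174 and 112 RPKM (-2.21, SE 0.23, limma-trend adjusted p = 0.000584), and -1.89 without replicate 2 was also called. Fpr2, a receptor for annexin A1 and lipoxins, had a difference of -1.82 that was called (limma-trend adjusted p = 0.028) and one of -1.38 without replicate 2 that was not (limma-trend adjusted p = 0.174). Pla2g7 and Pla2g15, lipases of oxidised phospholipids and of the lysosome, rose by 1.97 and 1.71, and by 2.31 and 1.70 without replicate 2, where both were called again. Ptgdr2, a prostaglandin D2 receptor gene, was at 2.55 and 1.33 RPKM in Scramble and listed at 0 in both Atf3KO libraries, and its call was lost without replicate 2 (limma-trend adjusted p = 0.069).

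In JunDKO, 4 of the 26 rose and 5 fell, where 4.81% and 3.97% of all genes did, and the median difference was 0.02 against 0.23 over all genes. Ptgr1 fell to 10.2 and 12.1 RPKM (-2.71, SE 0.21, limma-trend adjusted p = 0.000218) and the prostacyclin receptor gene Ptgir from 23.8 and 25.1 RPKM to 5.41 and 5.45 RPKM (-1.98, SE 0.20, limma-trend adjusted p = 0.000679). Fpr2 went from 41.3 and 46.6 RPKM to 0 and 2.56 RPKM (-4.57, SE 0.54, limma-trend adjusted p = 0.00143). The prostaglandin D synthase gene Hpgds rose from 22.4 and 28.6 RPKM to 96.7 and 97.8 RPKM (1.90, SE 0.27, limma-trend adjusted p = 0.00331). Ltc4s, which makes leukotriene C4, rose from 0.956 and 2.16 RPKM to 19.0 and 10.0 RPKM (2.58, SE 0.55, limma-trend adjusted p = 0.021). Its values rest on 1 and 2 reads in Scramble and on 16 and 100 reads in JunDKO. Pla2g15 rose by 1.86. In JunKO, limma-trend called 0 of the 26, where 0.281% of all genes were called, and 6 had an unadjusted p under 0.05, as had 842 of all 10691 genes.

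Among TGEMs, limma-trend called 0 of 26 of these genes after KLA (1 with an unadjusted p under 0.05) and 1 between strains, where 1.53% and 2.31% of all genes were called. The 1 between strains was Cyp4f18, which hydroxylates leukotriene B4, at 5.77 and 6.19 RPKM in C57Bl/6EiJ and at 0.253, 0.103 and 0.360 RPKM in Balb/cJ (-2.50, SE 0.31, limma-trend adjusted p = 0.010). Between vehicle TGEMs and Scramble iBMDMs, 27 could be tested, and 8 were higher and 7 lower in TGEMs, beside 12.5% and 23.9% of all genes. Pla2g7 was at 126 and 126 RPKM in vehicle TGEMs and at 0.818 and 1.84 RPKM in Scramble (5.81, SE 0.43, limma-trend adjusted p = 1.92e-05). Mgll, which frees arachidonic acid from a monoacylglycerol, was at 58.0 and 20.5 RPKM and had no reads in Scramble, and Daglb, the enzyme before it, was higher by 3.36. The leukotriene C4 exporter gene Abcc1 was at 9.58 and 7.96 RPKM against 145 and 129 RPKM (-3.82, SE 0.22, limma-trend adjusted p = 6.55e-06). Ptgis, the prostacyclin synthase gene, was at 6.91 and 6.14 RPKM against 0 and 0.336 RPKM, and Fpr2 was listed at 0 in both vehicle libraries.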

How the data were processed

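Poly(A) RNA of 13 libraries was sequenced, and per the labels the authors used STAR and HOMER with the mm10 build; versions are not given in the sources used here. The deposited table holds RPKM per gene model, made by the authors with HOMER's analyzeRepeats over exons, condensed to 1 model a gene and normalised to the library total; the setting for strand is not named in its header. The 10 genes and all gene lists were chosen with earlier results of these data known. Whole reads were recovered from the steps of the RPKM values (100% of values of up to 50 reads came out whole, with a tolerance of 0.05 read or the rounding error), which gave the depth of each library. Intervals of read ratios are exact binomial and cover counting error only. No pair of replicates held identical values, and all differed by more than sampling noise.

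Tests used limma 3.58.1 in R 4.3.3 (lmFit, eBayes with trend, two-sided) on log2(RPKM + 1) of genes averaging 1 RPKM or more across the fitted libraries, with Benjamini-Hochberg adjustment over all of them. Knockouts were fitted over the 8 iBMDM libraries, KLA and strain over the 5 TGEM libraries with strain and treatment as terms, and cell kinds over all 13 with 8 group terms. Steps were tested on simulated data. The 10 genes are reported in each comparison, by value or range; of the other 48, counts and at most 6 of those called, by size of change, with the most abundant. The 3 most similar profiles are given for Ptgs1, Ptgs2 and Alox5. Alternatives were pseudocounts of 0.25 and 5, no filter, equal medians, quantile normalisation, limma-voom on recovered reads, other thresholds (adjusted p alone, or a group mean of at least 16 RPKM), a spline correction for GC, other fits and leaving out libraries. A crossed replicate block, a block without Atf3KO, and the other 48 genes without Atf3KO replicate 2 were chosen after seeing the data. Promoter windows came from RefSeq (GRCm38.p6).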

Additional observations from a re-analysis of the deposited data

How the results depend on the processing

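Of the 16 calls among the 10 genes over the 6 main comparisons, none changed direction under an alternative. They were made again in 218 of 254 alternatives, not all of which could have changed them. With adjusted p alone no call could be lost. Several other settings reused the same fit or left the difference as it was, so its sign could not change. Of the uncalled results, 9 changed sign under 1 alternative or more. Of 42 uncalled results in 685 alternatives, 12 were called, some of them only because the 2-fold rule was dropped. With a pseudocount of 5, the genes called numbered 2 for Atf3KO, 2 for JunDKO and 0 for KLA, where 13.1%, 4.99% and 1.13% of all genes were called; with no filter on low values, 2 for Atf3KO and 0 for KLA (all genes 7.43% and 0%); with a group mean of at least 16 RPKM required, 1 for Atf3KO, 1 for JunDKO and 3 for TGEMs against iBMDMs, where 12.5%, 4.97% and 19.9% of all genes were called; and with title date in place of strain, 0 for KLA (all genes 0.686%). Leaving out each library in turn gave 2 to 4 for Atf3KO (2 without Scramble replicate 2, where 18.2% of all genes were called) and 0 to 1 for KLA (0 without the Balb/cJ vehicle library, where 0.272% were). With no filter, 24453 models shared the adjustment; the cause of the other changes was not tested. The test of KLA by strain could not be refitted without a library, since no residual degree of freedom remained.

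Replicate numbers of the iBMDM libraries are not said to mark a shared culture or day. Deviations from group means of same-numbered libraries correlated at 0.18 to 0.22 between Scramble, JunKO and JunDKO, which share a title date, and at -0.12 to -0.21 with Atf3KO. With a replicate block, 4 of the 10 genes were called for Atf3KO, 0 for JunKO and 5 for JunDKO, beside 28.0%, 0.131% and 8.02% of all genes; with Atf3KO numbers exchanged the counts were 4, 0 and 5, beside 29.8%, 0.505% and 9.98%. All-gene calls in JunKO were 14 and 54. With a replicate block over the 3 groups without Atf3KO, 0 of the 10 genes and 78 genes in all (0.73%) were called for JunKO, and 5 and 1085 (10.2%) for JunDKO. The planned fit of these groups without the block called 0 and 24 (0.225%) for JunKO, and 4 and 976 (9.13%) for JunDKO. Over the 2 groups compared, JunDKO had 4 and 956 (8.95%). Ptges was the call lost in both. Over all alternatives, all-gene calls ran from 1339 to 4409 for Atf3KO (main 3068), 14 to 78 for JunKO (30), 409 to 1256 for JunDKO (938), 0 to 368 for KLA (158), 0 to 633 for strain (239) and 2170 to 5456 for cell kinds (3980). Equal library medians turned 514 higher and 424 lower calls in JunDKO into 266 and 614, 89 and 150 between strains into 110 and 114, and 1365 and 2615 between cell kinds into 1899 and 1779, moving the median of all genes from 0.23 to -0.04, -0.08 to 0.01 and -0.32 to -0.02.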

Other observations

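Genes of the cysteinyl leukotriene route were unevenly present. Dpep2, which converts leukotriene D4 to E4, was at 40.3 to 82.7 RPKM over the 13 libraries, and the receptor gene Cysltr1 was at 8.75 to 20.9 RPKM in iBMDMs and 2.06 to 3.47 RPKM in TGEMs. The 12/15-lipoxygenase gene Alox15 was at or under 0.268 RPKM in each library. The leukotriene B4 receptor gene Ltb4r1 was listed at 0 in 12 of them and at 0.221 RPKM in the C57Bl/6EiJ KLA library.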
